A study of Mus musculus with 8 samples.

Results

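The genes described here mark medium spiny neurons, the GABAergic projection neurons that make up most of the neurons of the striatum. With earlier results of these data known, 8 genes were fixed by name: Penk, Rgs9, Pde10a, Drd2, Drd1, Adora2a, Ppp1r1b and Tac1. Every probe set whose single listed symbol was one of these was taken, which gave 9 probe sets for 6 genes among 22626 probe sets for 12393 named genes. Drd1 and Adora2a had no probe set listed under their symbols and are not analysed here. RNA came from the right hippocampus of 8 mice, with 1 Affymetrix array per animal. The 4 normal mice were B6.C-H2-Kbm1/ByBir carriers of 1 mutant copy of Gusb (mps/+), and the 4 mutant mice of the same background carried 2 (mps/mps), a model of mucopolysaccharidosis VII. The controls were thus carriers, not wild type. Normals 1 and 4 and mutants 1 and 4 were female, at 38.3, 14.6, 38.3 and 19.6 weeks of age. Normals 2 and 3 and mutants 2 and 3 were male, at 25.6, 19.6, 25.6 and 25.6 weeks.

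Medium spiny neurons form 2 output pathways that share most of their genes. Neurons of the direct pathway carry the dopamine receptor Drd1 and make the substance P precursor Tac1, and those of the indirect pathway carry Drd2 and the adenosine receptor Adora2a and make the enkephalin precursor Penk. Both kinds hold Ppp1r1b, a phosphoprotein switch of dopamine and cAMP signalling, Rgs9, which ends G protein signals, and Pde10a, which breaks down cyclic nucleotides. The principal neurons of the hippocampus are glutamatergic, and the striatum lies near it in the hemisphere. Penk, Tac1 and Drd2 are also made by smaller groups of neurons outside the striatum, including hypothalamic ones, so these 3 are less specific than the other 3.

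All 6 measured genes were high in the same 3 normal arrays, normals 1, 3 and 4, and low in normal 2 and in all 4 mutants. In each gene the lowest of the 3 high arrays lay above the highest of the other 5. Over all genes, read from 1 probe set each, 3.99% had this order. By probe set it held for 8 of the 9, against 3.97% of all probe sets. The 3 arrays were singled out because these genes were high there, so the order is a description of the arrays and carries no test. The mean of the 6 genes was 10.1, 10.4 and 9.34 on the log2 scale in normals 1, 3 and 4. It was 7.44 in normal 2 and 7.70, 6.88, 6.60 and 7.11 in mutants 1 to 4. In tissue arrays, fewer cells of a type and less RNA per cell cannot be told apart.

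Some array-wide facts touch these values. Array medians lay between 6.09 and 6.17, and the labelled sex matched the X- and Y-linked genes on 8 of 8 arrays. The 27 probe sets for bacterial transcripts that were not in the samples reached at most 3.72, taken here as the level of an absent transcript. RNA quality of normal 1 stood apart: its 3′ probe sets for actin and Gapdh exceeded the 5′ ones by 3.58 on average, against 0.22 to 0.75 on the other 7 arrays. Gusb, the mutated gene, had 2 probe sets: one read 6.56, 5.40, 5.83 and 6.02 in normals 1 to 4 and 4.36 to 4.71 in mutants, and the other read 5.12, 6.40, 5.87 and 5.70 in normals and 5.55 to 6.59 in mutants.

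Promoter windows were listed for 4 of the 6 measured genes in the RefSeq table of GRCm38.p6. They are shown because these genes were high in the same 3 arrays, and each runs 5′ to 3′ on the gene's strand from before to just after the start of transcription. Capitals mark matches on either strand to the GC box GGGCGG, the CRE half-site TGACG, the E-box CACGTG or the TATA box TATAAA. No 2 of the motifs overlapped in these windows. Pde10a is listed with 2 starts, and the window with the lower coordinate is printed.
Tac1, chr6:7554811-7555110, plus strand: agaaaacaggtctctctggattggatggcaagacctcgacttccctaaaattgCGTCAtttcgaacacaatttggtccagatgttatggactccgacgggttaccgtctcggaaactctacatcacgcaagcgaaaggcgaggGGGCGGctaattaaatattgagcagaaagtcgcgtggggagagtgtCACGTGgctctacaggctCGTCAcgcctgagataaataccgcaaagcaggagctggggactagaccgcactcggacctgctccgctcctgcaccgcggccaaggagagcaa
Drd2, chr9:49340153-49340452, plus strand: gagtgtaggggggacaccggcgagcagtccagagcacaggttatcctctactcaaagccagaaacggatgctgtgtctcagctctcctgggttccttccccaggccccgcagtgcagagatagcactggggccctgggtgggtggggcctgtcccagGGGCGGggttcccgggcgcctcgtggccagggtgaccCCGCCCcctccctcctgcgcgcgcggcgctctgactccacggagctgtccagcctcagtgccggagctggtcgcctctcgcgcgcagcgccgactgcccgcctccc
Rgs9, chr11:109298132-109298431, minus strand: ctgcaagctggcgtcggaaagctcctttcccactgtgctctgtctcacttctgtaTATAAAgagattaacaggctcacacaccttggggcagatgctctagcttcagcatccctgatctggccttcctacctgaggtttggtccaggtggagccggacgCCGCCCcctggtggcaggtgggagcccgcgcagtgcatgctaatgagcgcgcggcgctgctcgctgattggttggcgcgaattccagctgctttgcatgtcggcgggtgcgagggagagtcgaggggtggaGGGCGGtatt
Pde10a, chr17:8801495-8801794, plus strand: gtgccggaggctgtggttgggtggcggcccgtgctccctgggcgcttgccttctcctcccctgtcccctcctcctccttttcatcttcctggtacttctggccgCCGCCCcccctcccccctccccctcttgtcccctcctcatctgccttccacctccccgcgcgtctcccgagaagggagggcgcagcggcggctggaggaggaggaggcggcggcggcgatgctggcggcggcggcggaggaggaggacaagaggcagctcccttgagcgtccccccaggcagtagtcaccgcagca

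A GC box was the one motif of the 4 found in all 4 printed windows, and 35.7% of 32851 RefSeq promoter windows of this length held one. The CRE half-site, the core of the site bound by CREB in cAMP responses, was found in Tac1, at 2 places on the opposite strand, and 20.8% of windows held it. Tac1 also held an E-box, found in 7.15% of windows, and Rgs9 held a TATA box letter match well before its start, as did 13.6% of windows anywhere. A match is a description of letters, not a bound site.

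Penk had the widest distance between high and low arrays. It was at 12.44, 8.95, 12.13 and 11.82 in normals 1 to 4 and at 9.05, 7.24, 7.64 and 8.06 in mutants 1 to 4. Normals 1, 3 and 4 lay close together and normal 2 lay just under mutant 1, so the genotype groups overlapped. The lowest of the 3 high arrays stood 2.76 above the highest of the other 5, or 6.79-fold, the widest such distance of 12393 genes. The 3 arrays were singled out by Penk and the other members, so this rank is a description and no test. The group means were 11.33 ± 1.61 in normals and 8.00 ± 0.78 in mutants (SD, n = 4 each).

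Drd2, the dopamine receptor of the same indirect pathway neurons, was at 8.15, 5.79, 8.83 and 7.69 in normals and at 6.07, 5.40, 3.81 and 6.08 in mutants. Normal 2 lay inside the mutant range. Mutant 3 was the lowest array, close to the level of absent transcripts. The distance between the 3 high arrays and the other 5 was 1.61, and the group means were 7.61 ± 1.30 and 5.34 ± 1.07 (SD, n = 4 each).

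Tac1 was the measured gene of the direct pathway and the least separated of the 6. Its values were 11.87, 10.26, 11.78 and 11.32 in normals and 10.73, 9.91, 8.68 and 9.68 in mutants. The distance between the high arrays and the others was 0.59, set by mutant 1. All 8 arrays lay far above the absent level, and mutant 3 was again lowest. The group means were 11.31 ± 0.74 and 9.75 ± 0.85 (SD, n = 4 each).

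Ppp1r1b, shared by both pathways, was at 10.97, 6.45, 11.09 and 8.87 in normals and at 7.20, 6.13, 6.94 and 6.36 in mutants. Normal 4 lay between the other 2 high arrays and the low ones, unlike in Penk, where it was close to the high ones. Normal 1 was 19.8-fold, normal 3 21.5-fold and normal 4 4.63-fold above the mutant mean of Ppp1r1b, while for Penk the same 3 arrays were 21.8-fold, 17.5-fold and 14.1-fold above it. Normal 2 was slightly below the mutant mean of Ppp1r1b, by a log2 value of -0.21. The group means of Ppp1r1b were 9.35 ± 2.18 and 6.66 ± 0.50 (SD, n = 4 each).

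Rgs9 followed the mean profile of the 6 genes most closely of all members. It was at 10.25, 7.73, 10.96 and 9.90 in normals and at 7.77, 7.19, 7.13 and 7.27 in mutants. The 5 low arrays lay within a narrow band, and the high arrays began 2.13 above it. The group means were 9.71 ± 1.39 and 7.34 ± 0.29 (SD, n = 4 each). The other Rgs9 probe set read 2.90 to 3.77, at or under the absent level on 7 of 8 arrays, and held no such order.

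Pde10a had 3 probe sets, all highest in normal 3. The brightest read 7.18, 5.43, 7.51 and 6.43 in normals and 5.33, 5.38, 5.37 and 5.22 in mutants. Normal 2 exceeded the highest mutant by little, so the groups just failed to overlap on this probe set. The second read 6.12, 4.54, 6.55 and 5.05 in normals and 4.28 to 4.73 in mutants. The third read 3.33 in normal 2, 4.66 in normal 4, 6.75 in normal 3 and 2.93 to 3.20 in mutants, and 5 arrays were at or under the absent level. On the first 2 probe sets normal 1 lay nearer to normal 3 than to normal 4, while on the third it lay under normal 4. The brightest probe set had group means of 6.64 ± 0.92 and 5.33 ± 0.07 (SD, n = 4 each).

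**Figure D1:**
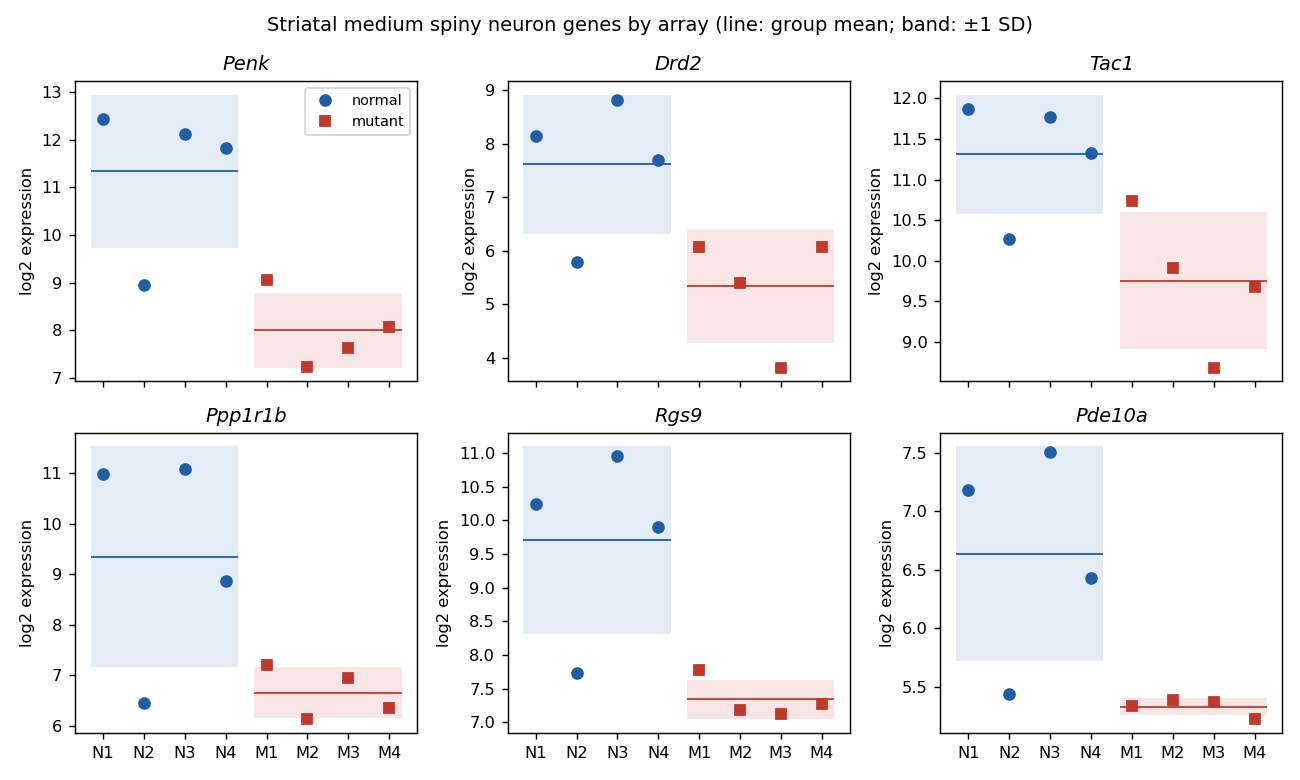
Log2 expression of the 6 measured genes on each array (N1 to N4, normals 1 to 4, blue circles; M1 to M4, mutants 1 to 4, red squares), with lines for group means and bands for 1 SD (n = 4 each). Normals 1, 3 and 4 lie above the other 5 arrays in every panel, and normal 2 lies inside the mutant range in 5 of the 6 panels and just above it for Pde10a.

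The mutant against normal comparison asks whether these genes differ with genotype. All 9 probe sets had lower means in mutants, where 52.9% of all probe sets did. None of the 9 passed adjusted p 0.05 in limma over all probe sets, and 8 had an unadjusted p under 0.05, all lower, where 2.81% of all probe sets were lower and 3.14% higher at that level. The members were chosen with earlier results of these data known, so their counts beside these shares are no independent test of genotype. In the same fit 2 probe sets (0.00884%) were called lower and 18 (0.0796%) higher. The median change of the 6 genes was -2.32 on the log2 scale, beside 0.011 over all genes. Penk changed by -3.34 ± 0.76 (SE), a 10.1-fold lower mean, with a 95% interval of -5.08 to -1.59 (limma adjusted p = 0.383). Rgs9 changed by -2.37 ± 0.61 (SE, limma adjusted p = 0.498). Drd2, Tac1, Ppp1r1b and Pde10a changed by -2.27, -1.56, -2.69 and -1.31, with limma adjusted p between 0.652 and 0.786. The groups did not overlap on 2 of the 9 probe sets, both of Pde10a, against 1.75% of all probe sets with all mutants below all normals. On both, normal 2 exceeded the highest mutant by little, at 5.43 against 5.38 and at 3.33 against 3.20. The latter values were under the absent level.

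The call depended on normal 2. Leaving it out keeps the 3 normals that were singled out for high values of these genes, so the p-values and SEs without it, here and for other striatal genes, describe that dependence and are no independent test of genotype. Without it, the change was -3.03 ± 0.27 (SE), or 8.15-fold, for Rgs9 (limma adjusted p = 0.0166) and -4.13 ± 0.41 (SE), or 17.5-fold, for Penk (limma adjusted p = 0.0281). These were 2 of the 9 probe sets, where 0.053% of all probe sets were called lower. Ppp1r1b (-3.65, limma adjusted p = 0.0779) and Pde10a (-1.71, limma adjusted p = 0.0661) did not pass without it. Drd2 and Tac1 were at -2.88 and -1.91 (limma adjusted p = 0.170 and 0.229). Normal 2 set alone against the 4 mutants, a comparison chosen after seeing its low values, gave a median change of -0.42 over the 6 genes, between -0.95 for Penk and 0.21 for Ppp1r1b, given as values with no test. None of the 9 probe sets passed when any other single animal was left out, normal 1 with its different RNA quality included.

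**Figure D2:**
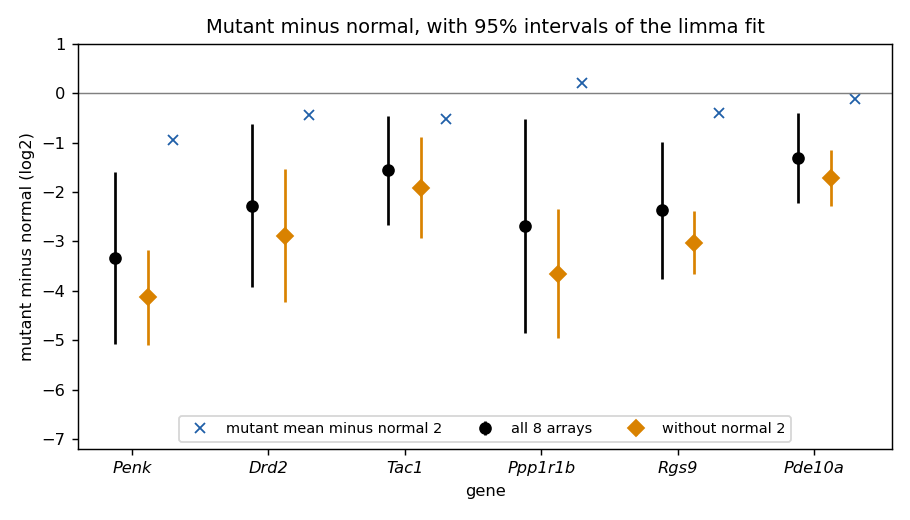
Mutant minus normal on the log2 scale for the 6 genes, with 95% intervals of the limma fit on all 8 arrays (black circles) and without normal 2 (orange diamonds). Blue crosses give the mutant mean minus normal 2 alone, which has no interval and lies between -0.95 and 0.21.

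The high arrays spanned both sexes and a wide range of ages. They were a female of 38.3 weeks, a male of 19.6 weeks and a female of 14.6 weeks. Mutants of the same labelled age as a high normal were low: mutant 1 was below normal 1 by a log2 value of -1.14 (Tac1) to -3.77 (Ppp1r1b), and mutant 4 below normal 3 by -2.10 (Tac1) to -4.73 (Ppp1r1b). At 25.6 weeks, where the normal was low, mutant 2 differed from normal 2 by -0.05 (Pde10a) to -1.71 (Penk). Mutant 3, of that age too, differed from normal 2 by -1.97 (Drd2) to 0.49 (Ppp1r1b). A difference in the genotype effect between the sexes was estimated from 2 animals per sex and genotype. It lay between -0.91 and 0.85 over the 9 probe sets (female minus male), with 0 of 9 past the threshold in limma, lowest adjusted p 0.845, and 0% of all probe sets called. At an unadjusted p under 0.05 there were 0 of 9, against 10.5% of all probe sets.

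Other genes of striatal projection neurons, from lists chosen with earlier results of these data known, shared the order of arrays in part. Of 44 such genes 31 were measured, and 30 had lower means in mutants (median change -1.15, beside 0.011 over all genes). None passed in limma over all probe sets (lowest adjusted p 0.383), and 15 had an unadjusted p under 0.05, all lower, beside the 2.81% of all probe sets. In 15 of the 31 all of normals 1, 3 and 4 lay above the other 5 arrays, against 3.99% of all genes. Without normal 2, Rarb, a retinoic acid receptor gene (-3.19, limma adjusted p = 0.0150), and Rxrg, a retinoid X receptor gene (-2.57, limma adjusted p = 0.0482), were called lower. These were 2 of the 31, where 0.053% of all probe sets were called lower in that fit.

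The widest ranging of these genes was Ido1, an enzyme of tryptophan breakdown. It was at 8.63, 3.46, 7.86 and 5.70 in normals 1 to 4 and at 2.84 to 3.52 in mutants, so all 5 low arrays were at or under the absent level. Its step down from normals 1 and 3 to normal 4 was like that of Ppp1r1b. Rasd2, a small GTPase gene of the striatum, read 11.28, 7.64, 10.37 and 8.72 in normals and 7.07 to 8.75 in mutants, with normal 4 inside the mutant range.

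Bcl11b and Arpp21 were high in the 3 normals and also in mutant 3. Bcl11b, a transcription factor that medium spiny neurons share with other forebrain neurons, was at 7.62, 5.85, 9.35 and 8.32 in normals and at 5.18, 4.43, 8.81 and 4.62 in mutants. Arpp21, a cAMP-regulated phosphoprotein gene, was at 11.06, 6.35, 10.76 and 11.02 in normals and at 6.70, 6.93, 9.21 and 6.91 in mutants. Mutant 3 was thus the one low array for the 6 genes that was high for both. It also had the highest mean of 3 CA1 genes, 9.61, beside 6.84 to 6.98 in the other mutants.

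The remaining pathway genes were less sharply ordered. Of 6 direct pathway genes besides Tac1, Pdyn, the dynorphin precursor, alone had normals 1, 3 and 4 on top, at 7.34, 6.38 and 7.04 against 4.22 to 5.41 elsewhere. Isl1, a transcription factor of direct pathway neurons that other neurons use as well, was at 7.97 to 8.88 in normals, at 7.44 to 8.33 in mutants 1, 2 and 4, and at 3.27 in mutant 3. Of 3 measured indirect pathway genes besides Penk and Drd2, none had that order. Six3, a transcription factor gene, read 7.71, 6.95, 7.33 and 6.17 in normals and 4.51 to 6.92 in mutants, and Plxdc1 had a higher mean in mutants (0.50, limma adjusted p = 0.898).

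The measured signalling partners had a smaller median difference. Gnal, Gng7, Adcy5, Rgs7bp, Prkar2b and Ppp1r9b of this list had no probe set listed under their symbols and do not enter it. Of 10 measured genes for cAMP and dopamine signalling, 8 had lower means in mutants, with a median change of -0.22 and 0 called by limma. At an unadjusted p under 0.05, 1 was lower, beside 2.81% of all probe sets. Normals 1, 3 and 4 lay on top for Gnb5, Ppp1cc and Pde1b. Gnb5, the G protein beta subunit that binds Rgs9, was at 10.71, 9.16, 10.54 and 10.43 in normals and at 9.14 to 9.58 in mutants. It was called lower without normal 2 (-1.24, limma adjusted p = 0.0482), where 0.053% of all probe sets were called lower. It is named because it was the one gene of its list so called. Pde1b, a phosphodiesterase gene high in striatum, was at 11.72, 9.09, 11.17 and 10.26 in normals and at 8.90 to 9.89 in mutants, a change of -1.11. Genes that process neuropeptides or receive them had a median change of 0.05, with 3 of 8 lower, 0 called by limma and 0 at an unadjusted p under 0.05, and none had normals 1, 3 and 4 on top.

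The genes with the nearest profiles were found by centring each gene on its mean over the 8 arrays and taking the root mean square distance from the mean profile of the 6 genes. This ranks genes by values and carries no test. The nearest of 12387 genes were Rxrg (distance 0.27), Rasgrp2 (0.43), which encodes a Rap activator, Actn2 (0.50), Gpx6 (0.53), Arpp19 (0.55) and Rarb (0.57), where the median distance of all genes was 1.44. Pdyn, Gpr83, Stk26, Neu2, Pde7b, Dmkn, Rem2, St8sia3 and Lrrk2 followed, up to 0.67. Of these 15 genes, 6 were on the lists of other striatal genes, which held 31 of the 12387 genes ranked. Normals 1, 3 and 4 lay above the other 5 arrays in 14 of the 15, against 3.99% of all genes. That order follows from the choice by profile and is no separate result. Rxrg was at 8.66, 5.64, 8.27 and 7.33 in normals and at 5.35 to 5.90 in mutants. Lrrk2, a kinase gene known from Parkinson's disease, was at 8.76, 5.93, 8.07 and 7.69 in normals and at 5.99 to 6.62 in mutants.

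**Figure D3:**
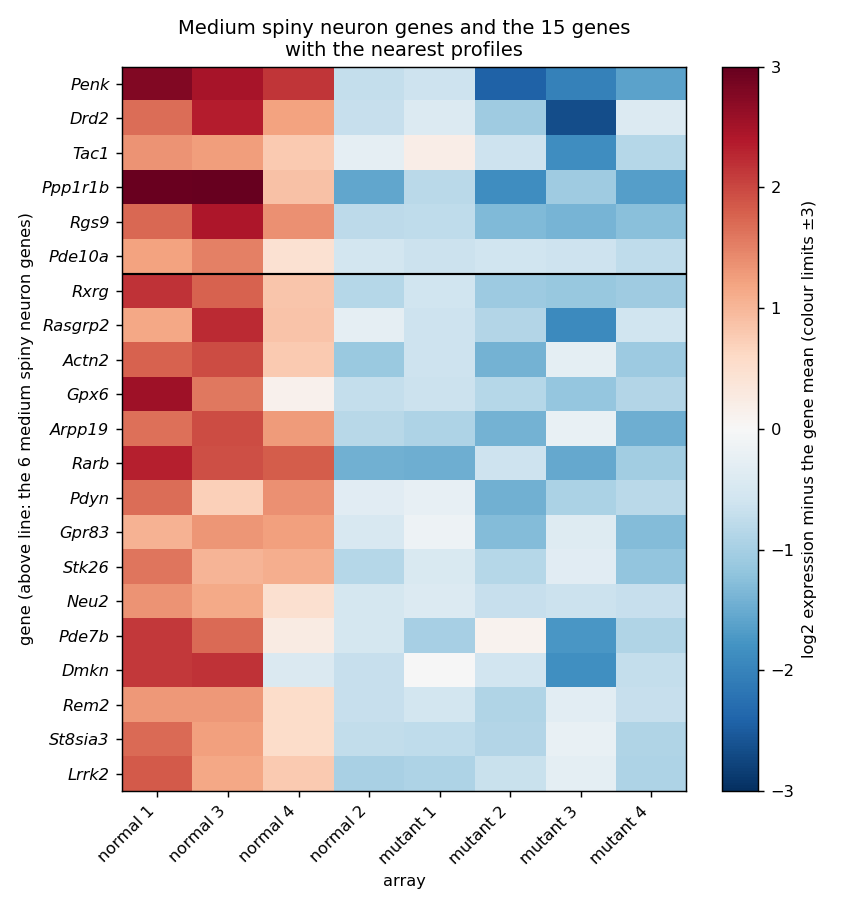
Log2 expression minus each gene's mean over the 8 arrays, for the 6 genes above the line and the 15 genes with the nearest profiles below it, with colours limited at 3 in either direction. Columns begin with normals 1, 3 and 4, which are red in nearly all genes, and the other 5 arrays are mostly blue.

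The profile with its sign turned was approached less closely, with distances of 0.73 to 0.90 for the nearest 8 genes. These were Serpina3n, Lmo1, Fbln1, Ccl3, Igf1, Gfap, Slc14a1 and Nt5dc3. Gfap, the astrocyte filament gene, was at 7.80, 7.73, 7.48 and 7.08 in normals and at 9.33 to 10.1 in mutants. Alone of these 8 genes, Gfap was called higher in mutants over all 8 arrays (2.27, limma adjusted p = 0.0152). In that fit 0.0796% of all probe sets were called higher. For Gfap normal 2 lay with the other normals, while for the 6 striatal genes it lay with the mutants. Serpina3n, a reactive astrocyte gene, was at 5.37, 7.05, 6.08 and 5.97 in normals and at 7.52 to 8.40 in mutants.

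Markers of other regions and cell types differed between the same arrays. For the counts below, 2.81% of all probe sets were lower and 3.14% higher in mutants at an unadjusted limma p under 0.05. Striatal interneuron genes, 6 of 7 lower in mutants with 0 called by limma and 2 at an unadjusted p under 0.05 (median change -0.46), had means of 7.48, 6.70, 7.39 and 6.87 in normals and of 6.18 to 6.54 in mutants. Among them Lhx8, a transcription factor of forebrain cholinergic neurons, was at 7.56, 3.94, 5.80 and 8.25 in normals and at 2.37 to 3.18 in mutants, all 4 of them under the absent level. It was highest in normal 4, the lowest of the 3 high arrays for each of the 6 genes. Sst, Npy and Pvalb, which hippocampal interneurons share, did not have this order: Pvalb was at 7.04 in normal 4 and at 9.77 to 11.3 on the other arrays. General GABAergic genes had a median change of -0.52, 5 of 5 lower with 0 called by limma and 2 at an unadjusted p under 0.05. Gad1 was the 1 gene of these 5 with normals 1, 3 and 4 on top, at 11.07 to 11.51 against 10.20 to 10.74. Gad2 was at 6.30, 8.27, 8.28 and 9.10 in normals 1 to 4 and at 6.04 to 7.46 in mutants. It did not have this order, because normal 1 lay inside the mutant range and normal 2 lay close to normal 3.

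Hypothalamic genes were high where the 6 genes were low, though not on every such array. Their mean was 8.62 in normal 2, 8.23 in mutant 1 and 7.37 in mutant 4, and 5.38 to 5.44 in normals 1, 3 and 4, but 5.83 in mutant 2 and 4.82 in mutant 3. Hcrt, the orexin precursor, was at 10.3, 9.58 and 9.88 in normal 2 and mutants 1 and 4 and at 4.51 to 4.80 on the other 5 arrays. Of the 5 low arrays, these 3 and mutant 2 had Drd2 at 5.40 to 6.08, and mutant 3 had it at 3.81. Thalamic and habenular genes had means of 8.78 in normal 2 and 9.22 and 9.03 in mutants 2 and 4, against 5.47 to 7.65 on the other arrays. Slc6a3, the dopamine transporter of midbrain neurons, was at 7.28 in normal 2, 9.23 in mutant 1 and 4.69 in mutant 4, and at 3.50 to 4.05 on the other 5.

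Hippocampal field markers also differed between arrays. The mean of 3 CA1 genes was 7.94, 7.16, 8.59 and 9.41 in normals 1 to 4. Among these Ccn3 was at 7.87 and 8.97 in normals 3 and 4 and at 9.73 in mutant 3, and at 5.18 to 5.46 on the other 5 arrays. Pou3f1 was at 9.44, 9.20 and 9.07 in normals 1, 3 and 4 and at 9.42 in mutant 3, against 6.76 to 7.67 on the other 4 arrays. Wfs1 was less sharply split, at 9.12, 8.36, 8.70 and 10.2 in normals 1 to 4. In mutants it was at 9.69 in mutant 3 and at 8.47 to 8.59 in mutants 1, 2 and 4. The CA1 genes differed for normal 1, which was low for Ccn3 and highest of all arrays for Pou3f1. Normal 1 was also the array with different RNA quality, and the part of that in its readings here was not tested. Dentate gyrus genes had means of 3.48 to 4.67 on all arrays but mutant 3, at 5.95. Prox1, the defining factor of dentate granule cells, was at 2.50 to 5.08 and at or under the absent level on 4 of 8 arrays. Unlike the list mean, Prox1 was highest in mutants 2 and 4 (5.08 and 4.83) and at 3.82 in mutant 3. Dsp, Tdo2 and Lct of the same list were highest in mutant 3. Neurod6, a factor of hippocampal and cortical pyramidal neurons, was at or under the absent level in normal 1 and mutants 2 and 4 (2.42 to 2.75) and at 4.62 to 8.68 on the other 5 arrays. The other measured genes of its list were not absent in normal 1 and mutants 2 and 4. There Neurod2 was at 5.65 to 5.99, and Tbr1 was just above the absent level at 3.92 to 4.05. The mean of the 2 measured CA3 genes was low where the 6 striatal genes were high: 6.12, 6.48 and 5.47 in normals 1, 3 and 4, against 6.71 to 7.17 on the other 5 arrays. Of the 2, Iyd had this turned order, at 3.39 to 4.67 against 4.77 to 5.35, while Bok overlapped, with 8.29 in normal 3 and 8.27 in mutant 3. The part of these regional differences in the striatal values was not tested. Across the lists for CA1, CA3, dentate gyrus, pallial, thalamic, hypothalamic, midbrain dopamine and choroid plexus cells, limma called 0 genes in either direction. At an unadjusted p under 0.05 there were 3 choroid plexus genes, all higher in mutants, beside 3.14% of all probe sets, and none on the other lists.

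Other tissue markers also moved with single arrays. Choroid plexus genes had means of 8.27 and 7.38 in mutants 1 and 3 and of 4.39 to 5.36 on the other 6. Oligodendrocyte genes, abundant in the fibre bundles of the striatum, had means of 10.63 to 11.05 in normals and 9.61 to 10.46 in mutants. Of these genes 5 of 5 were lower in mutants (median change -0.82), with 0 called by limma. At an unadjusted p under 0.05 there were 3, beside 2.81% of all probe sets lower. In contrast to the 6 genes, the mean of normal 2 (10.91) was with the other normals. Mbp, 1 of the 5, did have normals 1, 3 and 4 above the other 5 arrays. The part of regional tissue content in the lower striatal means of mutants was not tested, and no mutant array had these genes high, so genotype and tissue content cannot be told apart for them.

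**Figure D4:**
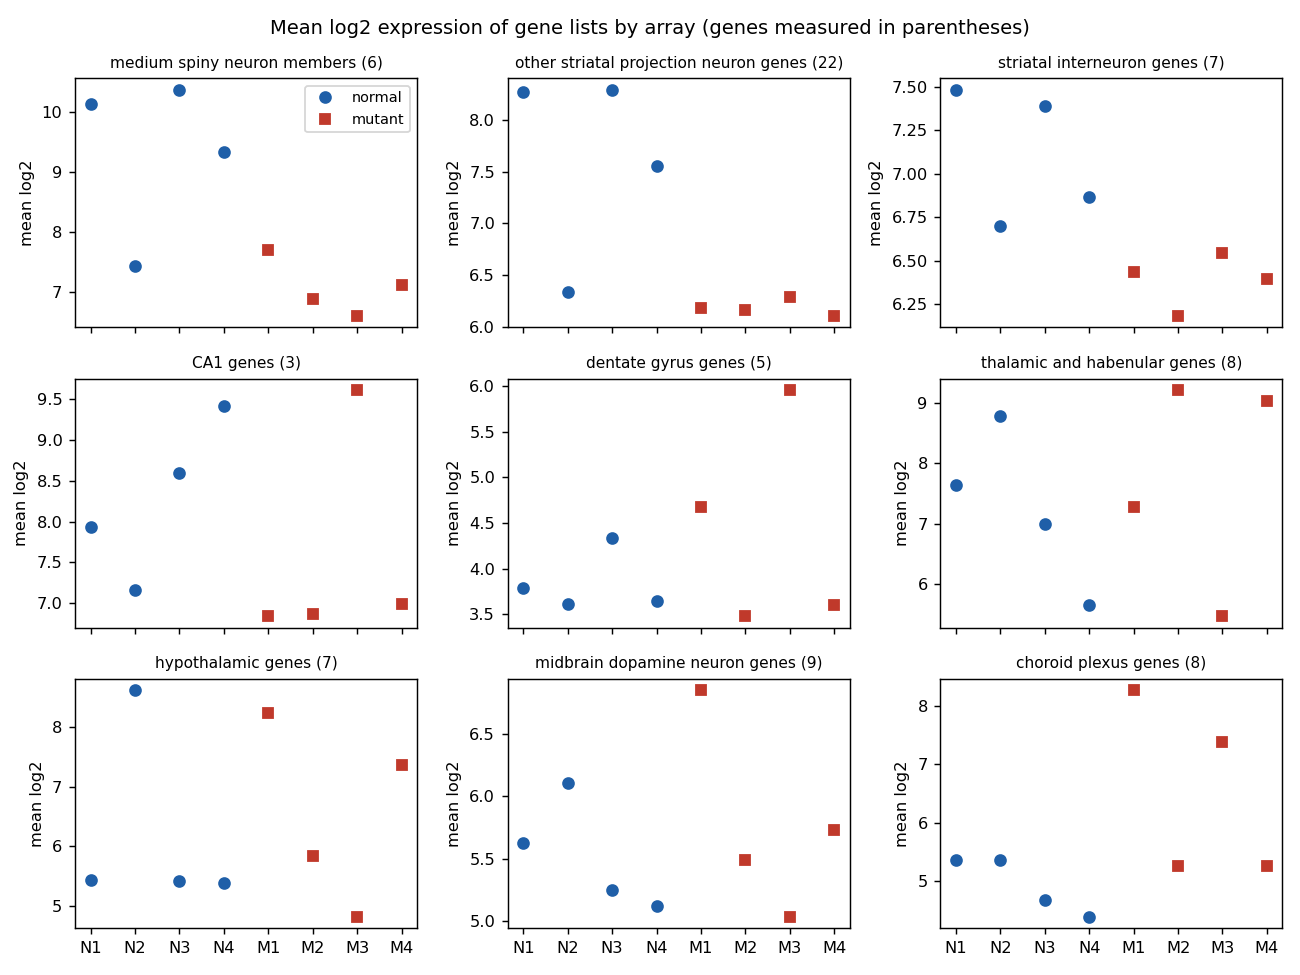
Mean log2 expression of 9 gene lists on each array (N1 to N4, normals, blue circles; M1 to M4, mutants, red squares), with the number of genes measured in parentheses. Normals 1, 3 and 4 are highest in the upper row, while CA1 genes are highest in normal 4 and mutant 3 and hypothalamic genes in normal 2 and mutant 1.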

How the data were processed

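The authors deposited log2 expression values per probe set made with RMA (per the submitters' processing notes, which also list GCOS 1.4). The aligned genome build was not given in the sources used here. GEO's platform annotation gave 1 symbol to 20380 probe sets, several to 691 and none to 1555, and 64 controls were left out. A gene was read from its probe set with the highest mean over 8 arrays. Groups followed the labels, and animals were numbered in accession order, which pairs nothing. Genotypes were tested by lmFit and eBayes (limma 3.58.1, R 4.3.3) with Benjamini-Hochberg adjustment over 22626 probe sets at 0.05, and the interaction of genotype and sex likewise. On simulated data of the same size for mutants against normals, 55% of 100 probe sets with a log2 change of 1 and 87% of 100 with a change of 2 were recovered, with 7 false calls. The simulated noise was independent between probe sets, and the changed probe sets were picked at random. These rates do not apply to the members, which had wide SDs in normals and shared 1 split of the arrays. Figures used Python 3.11.15.

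The members and lists were chosen with earlier results of these data known. Besides the members and Gusb, the rule for named genes took the 4 widest-ranging genes of each list, the 15 nearest profiles and the 8 nearest to the turned profile. Gnb5, Ppp1cc, Sst and Mbp fall outside it and were named after their values were seen. Intensities carry no read depth, and precision is set by having 4 animals per group. The labels make each animal a separate sample. The alternatives tried are described in the closing section.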

Additional observations from a re-analysis of the deposited data

Results flagged for a closer look

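Among 218 groups of 4 arrays examined, over the members, the named genes and the list means, 23 held an array far from the other 3 of its group. Chance flags about 1 in 20 such groups, and all groups share the same 8 arrays. None of the 6 brightest member probe sets was among them. The dim Rgs9 probe set was at 3.40 in mutant 4 and at 2.90 to 2.97 in the other mutants, all under the absent level.

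Normal 2 stood apart from the other normals for other striatal genes and for genes of neighbouring regions. It was low for Rarb (6.17 against 9.42 to 9.94), Arpp21 (6.35 against 10.8 to 11.1) and Gpr83, a peptide receptor gene (7.08 against 8.60 to 8.89). It was high for the vasopressin precursor Avp (12.3 against 5.29 to 6.12), the orexin precursor Hcrt (10.3 against 4.70 to 4.75), the dopamine transporter Slc6a3 (7.28 against 3.51 to 4.05) and the mean of hypothalamic genes (8.62 against 5.38 to 5.44). The water channel gene Aqp1 was at 3.45 in normal 2 and at 3.02 to 3.06 in the other normals, all under the absent level.

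Mutant 3 stood apart from the other mutants for forebrain genes while its member genes were low. It was high for Bcl11b (8.81 against 4.43 to 5.18), Arpp21 (9.21 against 6.70 to 6.93), the mean of CA1 genes (9.61 against 6.84 to 6.98) and each CA1 gene, Ccn3 (9.73 against 5.18 to 5.38), Pou3f1 (9.42 against 6.76 to 6.99) and Wfs1 (9.69 against 8.47 to 8.59). It was low for the mean of other direct pathway genes (4.78 against 5.53 to 5.68), the neurokinin receptor gene Tacr3 (4.93 against 6.18 to 6.43) and the myelin genes Mog (6.27 against 7.23 to 7.37) and Mobp (10.7 against 11.5 to 11.7).

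Single genes stood apart elsewhere. Mutant 1 was high for Pcsk1, a peptide-processing enzyme (6.88 against 5.82 to 5.94), and Rxrg (5.90 against 5.35 to 5.42), and low for Nt5dc3 (9.14 against 9.85 to 9.97). Normal 3 was high for the myelin gene Cnp (12.28 against 12.03 to 12.04).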

How the results depend on the processing

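Of 20 other settings, 19 left 0 member probe sets and 0 other striatal genes past the threshold, as in the reported fit. The settings were 1 probe set per gene, the mean of a gene's probe sets, no probe sets with the suffixes _s_, _x_ or _a_, no dim probe sets (lowest 40%), repeated quantile normalization, median centring, a trended and robust variance, weighted arrays, a term for sex, for age or for the 2 together, a random block for animals of equal age, and leaving out each animal. Leaving out 1 animal gave 0 to 2 member probe sets and 0 to 2 other striatal genes, the 2 in each case without normal 2. The median change of the 6 genes lay between -2.95 and -1.91 when 1 animal was left out and between -2.56 and -1.92 otherwise. Normal 2 alone against the mutants, chosen after seeing the data, gave a median of -0.42 and turned the change of Ppp1r1b to 0.21, the cause of which was not tested. Without normal 2 the changes of Penk (-4.13) and Rgs9 (-3.03) passed, where 0.053% of all probe sets were called lower. The mean of both Rgs9 probe sets changed by -1.35, where one of them is near the absent level. The interaction gave 0 members in 13 settings. No paired analysis was possible because the labels give no replicate numbers and equal ages match the animals only in part, 1 normal with 2 mutants at 25.6 weeks and no mutant at 14.6 weeks. The random block for equal ages gave a median change of -2.56 and 0 members past the threshold. Its fitted correlation of equal-age animals was -0.22, so it took them as less alike than animals of different ages. With 4 animals per group and SDs of up to 2.18 in normals, intervals spanned up to several log2 units.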
